A study of Mus musculus with 15 samples.

Results

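The direct contrast of 2 ways of stimulating the same T cells for 8 h is described here, with 6 libraries of the 15 in the series. The cells were CD8+ OT-I T lymphocytes taken from the spleen and lymph nodes of female OT-1 mice, strain C57BL/6-Tg(TcraTcrb)1100Mjb/Crl, all of which carry a transgenic T cell receptor for an ovalbumin peptide on MHC class I. The immunofilament group (IF 8 h, 3 libraries) received synthetic filaments bearing MHC loaded with the SIITFEKL peptide together with interleukin-2, at 5 ng/ml. The dendritic cell group (DC 8 h, 3 libraries) received 20000 Flt-3Ligand dendritic cells per well, pulsed beforehand with SIITFEKL, a variant of the ovalbumin peptide. Each well held 50000 T cells, and viable CD8+ CD103- cells were sorted before RNA extraction. The labels name no costimulatory ligand on the filaments, and they give the age of no mouse. The 3 libraries of unstimulated cells at 0 h give the starting level, and the 3 IF and 3 DC libraries at 22 h repeat the contrast in other libraries. All genes of the count tables entered, and the genes past the test were then sorted into T cell programmes and likely dendritic cell transcripts by gene lists. The titles number the libraries of each group Don1 to Don3 (replicates 1 to 3 here) without saying what the number stands for. Whether they came from separate animals was not stated, so p-values measure the spread between these libraries, which may be technical.

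A naive CD8+ T cell integrates peptide-MHC recognition by its receptor, costimulation through CD28 and receptors of the TNF receptor family, and cytokines. Receptor ligation starts the calcium, MAPK and NF-κB pathways. Cytokines such as interleukin-2 act through JAK kinases and STAT factors, which switch on the SOCS family inhibitors and Cish as negative feedback. Dendritic cells supply peptide-MHC, costimulatory ligands, adhesion molecules and cytokines at once, and their own RNA can enter a T cell sample where cells stick together or exchange membrane.

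Total counts were 2892874 to 5572030 in the IF 8 h libraries and 6490604 to 9821932 in the DC 8 h libraries, so each IF library was shallower than each DC library. Levels are given as CPM, counts scaled to a common library total with TMM (trimmed mean of M values) factors, in the order of replicates 1, 2 and 3. Between 11427 and 13591 genes had a count, and mitochondrial genes took 11.5% to 15.7% of the counts in these 6 libraries. Erdr1, singled out after its values were seen, is listed on chromosome Y in the tables and lies in the region that X and Y share, so its counts do not bear on the sex given in the labels, and the 2 other genes listed there had 0 to 7 counts a library. In the 4 groups other than IF 8 h it was at 153 to 273 CPM in replicate 1, 864 to 1072 CPM in replicate 2 and 342 to 497 CPM in replicate 3. In IF 8 h it was at 275, 369 and 1013 CPM, the order of the other groups with replicates 2 and 3 exchanged. Such an exchange within a group would not alter the comparison of groups, and whether it took place was not tested. DC 8 h replicate 2 stood apart from its group. Among 6898 genes with a mean of at least 10 CPM it lay more than 2-fold above both other DC libraries for 135 and more than 2-fold below both for 174, against at most 53 and 125 for any of the other 5 libraries. T cell identity genes (Cd3, Cd8, Lck and their like) summed to 6657 to 7993 CPM in all 6 libraries. IF 8 h replicate 2 held more B cell RNA than the other 5 libraries, with the B cell list at 78.6 CPM against 13.2 to 49.03 CPM.

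Of 10831 genes tested by edgeR's quasi-likelihood test, 72 passed an adjusted p-value of 0.05, which is 0.665% of the genes. They divided into 25 higher with immunofilaments (0.231%) and 47 higher with dendritic cells (0.434%). In all 72 the lowest library of the higher group lay above the highest library of the lower group, as it did in 1462 genes tested (13.5%). Over all genes the median log2 fold change was −0.01, and 61 of the 72 genes differed by at least 1 on the log2 scale. Gene positions are from GENCODE vM21 (GRCm38). In the text, log2 fold changes are IF minus DC with their standard error (SE), so that a positive value is higher with immunofilaments. With 1 of the 6 libraries left out, 27 to 52 genes passed, the lowest number without IF replicate 3. The number was 44 without IF replicate 1, 47 without IF replicate 2, 35 without DC replicate 2 and 44 without DC replicate 3. The call held in all 6 such fits for 21 of the 72 genes, 12 higher with immunofilaments and 9 higher with dendritic cells. These 21 were Spry1, Itih5, Folr4, Itm2a, Fam26f, Myb, Mapre2, Ephx1, Fam102b, Cd28, Sla and Exoc2 on the immunofilament side and Fscn1, Igfbp4, Gadd45g, Dtx1, Socs3, Bcl3, Ncoa7, Rtp4 and Junb on the other. For every other gene past the threshold, the number of these 6 fits passed is given, or the highest adjusted p-value among them.

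**Figure D1:**
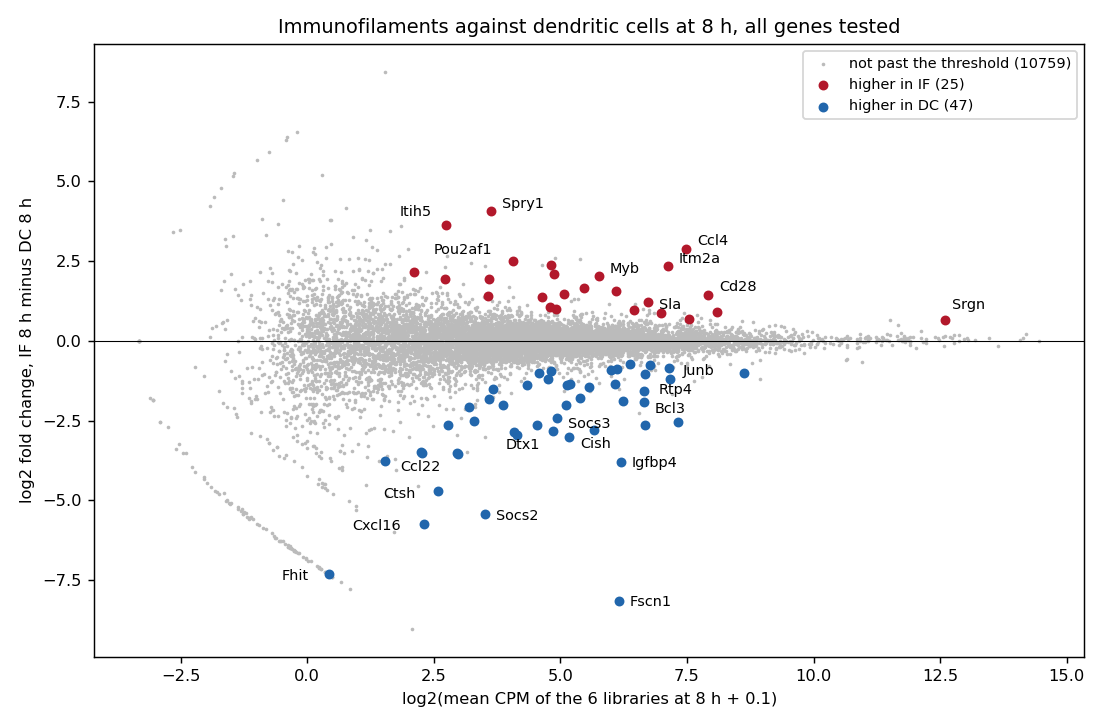
Each point is 1 of the 10831 genes tested, with the log2 of its mean CPM over the 6 libraries at 8 h (plus 0.1) on the x axis and its log2 fold change, IF minus DC, on the y axis. Red points are the 25 genes past the threshold and higher with immunofilaments and blue points the 47 higher with dendritic cells; Fscn1 lies lowest of the coloured points, at −8.15, and Spry1 highest, at 4.06.

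Genes of the T cell surface and of signalling close to the T cell receptor were among those higher with immunofilaments. Cd28, the costimulatory receptor for CD80 and CD86, stood at 412, 375 and 274 CPM with immunofilaments and at 135, 121 and 134 CPM with dendritic cells. The gene lies at chr1:60716800-60773359, plus strand. All 3 IF libraries lay at least 2-fold above the highest DC library, and the difference was 1.44 ± 0.19 (SE, adjusted p 0.00123 by edgeR). Unstimulated cells had 197, 148 and 211 CPM, between both groups. Sla, an adaptor that lowers T cell receptor levels at the surface, was at 162, 131 and 150.3 CPM against 60.4, 67.6 and 62.1 CPM, a difference of 1.22 ± 0.16 (adjusted p 0.00101). Cd5, a receptor that dampens T cell receptor signals, was at 121, 113 and 113 CPM against 64, 51.5 and 60.6 CPM (0.97 ± 0.17, adjusted p 0.00914). Its adjusted p-value was 0.0544 without DC replicate 2 and stayed under 0.05 in the other 5 fits. Its relative Cd6 differed by 0.69 and passed in none of the fits without 1 library. Slamf1, a self-binding receptor of the SLAM family, differed by 1.94 and passed in 2 of 6. Klrk1, which encodes the activating receptor NKG2D, differed by 1.06 (1 of 6 fits), and the kinase Ptk2b by 0.9 (2 of 6 fits). Gpr174, a receptor for lysophosphatidylserine, differed by 1.0 and passed in 0 of 6.

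Of 17 tested T cell identity genes 2 passed, Cd5 and Cd6, both higher with immunofilaments, against 0.231% of all genes, and the list's median was 0.18 against −0.01 for all genes. Cd2 was at 486, 587 and 534 CPM against 382, 312 and 372 CPM, a difference of 0.59 ± 0.15 that did not pass (adjusted p 0.107). Among 18 costimulatory and TNF receptor family genes, Cd28 and Slamf1 were higher with immunofilaments and Tnfrsf18, which encodes GITR, was higher with dendritic cells (−0.92, 1 of 6 fits). The list's median was 0.23.

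Spry1, a Sprouty protein that limits MAPK signalling downstream of receptors, had the largest difference on this side. The gene lies at chr3:37639947-37644598, plus strand. It was at 33.9, 25.5 and 9.91 CPM with immunofilaments, at 2.08, 1.74 and 0.147 CPM with dendritic cells and at 0.294, 0.361 and 0 CPM before stimulation. The difference between the stimuli was 4.06 ± 0.65 (adjusted p 0.00593). Against unstimulated cells Spry1 rose by 6.52 on the log2 scale with immunofilaments, and its change of 2.46 with dendritic cells did not pass. Spry1 shares exonic bases with Gm42922 on the opposite strand, and whether counting used the strand was not stated. It was the only one of 11 tested MAPK feedback genes to pass. Dusp6, a phosphatase that switches off ERK, differed by 1.49 ± 0.41 (adjusted p 0.15), and Spry2 by 2.56 ± 0.88 (adjusted p 0.319). The median of the list was 0.19.

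Transcription regulators higher with immunofilaments were Myb, Pou2af1 and Zeb2. Myb, a factor of progenitor and proliferating lymphocytes, was at 96.5, 69.3 and 95.4 CPM against 21.9, 27.4 and 15 CPM, with 7.63, 8.31 and 14.7 CPM before stimulation, so that every IF library lay above every DC library and every DC library above every unstimulated one. The difference between the stimuli was 2.02 ± 0.28 (adjusted p 0.00144). It shares exonic bases with Gm26577 on the opposite strand. Pou2af1, a coactivator of octamer-binding factors best known from B cells, was at 33.5, 24.2 and 27.6 CPM against 8.62, 2.73 and 3.52 CPM (2.5 ± 0.51, adjusted p 0.0333) and passed in 1 of 6 fits. Without DC replicate 1 the difference was 3.19. The B cell list without Pou2af1 summed to 15.2, 54.3 and 21.4 CPM with immunofilaments and 22.2, 10.4 and 26.6 CPM with dendritic cells, so that the groups overlapped, and the part of B cell RNA in this result was not tested. Without IF replicate 2, where that sum was highest, the adjusted p-value of Pou2af1 was 0.0620. Zeb2, a repressor linked to effector T cells, was at 3.75, 7.63 and 9.38 CPM against 1.49, 1.49 and 1.62 CPM, and unstimulated cells had 10.1, 12.8 and 8.61 CPM. Its call held in 1 of 6 fits.

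Itm2a, a membrane protein induced in T cells by receptor signals, was at 264, 197 and 236 CPM with immunofilaments and 44.2, 56.4 and 37.3 CPM with dendritic cells. DC levels overlapped those of unstimulated cells, at 32.9, 36.9 and 48.6 CPM. The difference between the stimuli was 2.34 ± 0.27 with an adjusted p-value of 0.00101, the smallest among all genes, which it shared with 8 others after adjustment. Of the chemokines that activated CD8+ T cells secrete, Ccl4 was at 397, 313 and 236 CPM against 36.2, 68.7 and 23.3 CPM (2.88 ± 0.60, adjusted p 0.0333, 1 of 6 fits). Ccl9 was at 10.9, 9.95 and 10.2 CPM against 2.18, 2.11 and 3.82 CPM (1.94 ± 0.35, adjusted p 0.0146, 2 of 6 fits). Ccl3, the partner of Ccl4, was at 66.9, 38.1 and 47.4 CPM against 4.36, 19.1 and 1.47 CPM and did not pass (adjusted p 0.319). In Ccl3 and Ccl4 alike, replicate 2 was the highest DC library. Of 14 tested effector cytokines and chemokines 2 passed, both higher with immunofilaments, against 0.231% of all genes, with a median of 0.39.

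The remaining genes higher with immunofilaments belong to several classes. Itih5, of a family that binds hyaluronan, was at 12.3, 16.9 and 7.5 CPM against 0.891, 1.24 and 0.734 CPM, with 3.52, 7.59 and 3.49 CPM before stimulation (3.65 ± 0.50, adjusted p 0.00135). Folr4, now named Izumo1r and encoding a folate receptor-like protein, was at 41.7, 45.1 and 55.2 CPM against 7.82, 12.9 and 6.31 CPM, and the unstimulated libraries, at 35.1, 57.5 and 55.2 CPM, overlapped the IF level. The difference of Folr4 was 2.39 ± 0.37 (adjusted p 0.00467). As Izumo1r it is on the list of CD4 and regulatory T cell genes, which missed it under the older symbol. Ephx1, the microsomal epoxide hydrolase, followed the same order, with 84.7, 105 and 117 CPM against 41.8, 28.7 and 32.7 CPM and 80.1, 82.8 and 88.7 CPM before stimulation (1.56, adjusted p 0.00101). Mapre2, which binds growing microtubule ends, differed by 1.65 (adjusted p 0.00135), Fam26f (now Calhm6) by 2.1 (adjusted p 0.00522) and Fam102b by 1.46 (adjusted p 0.00144). Exoc2, a subunit of the exocyst that tethers secretory vesicles, differed by 0.86 (adjusted p 0.00616). Srgn, the proteoglycan core of cytotoxic granules, was at 8234, 7132 and 7343 CPM against 4464, 5430.1 and 4491 CPM (0.66 ± 0.12, 2 of 6 fits). The cyclin-dependent kinase inhibitor Cdkn2c differed by 1.42 (1 of 6 fits) and D8Ertd82e (now Prag1) by 1.37 (2 of 6 fits).

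**Figure D2:**
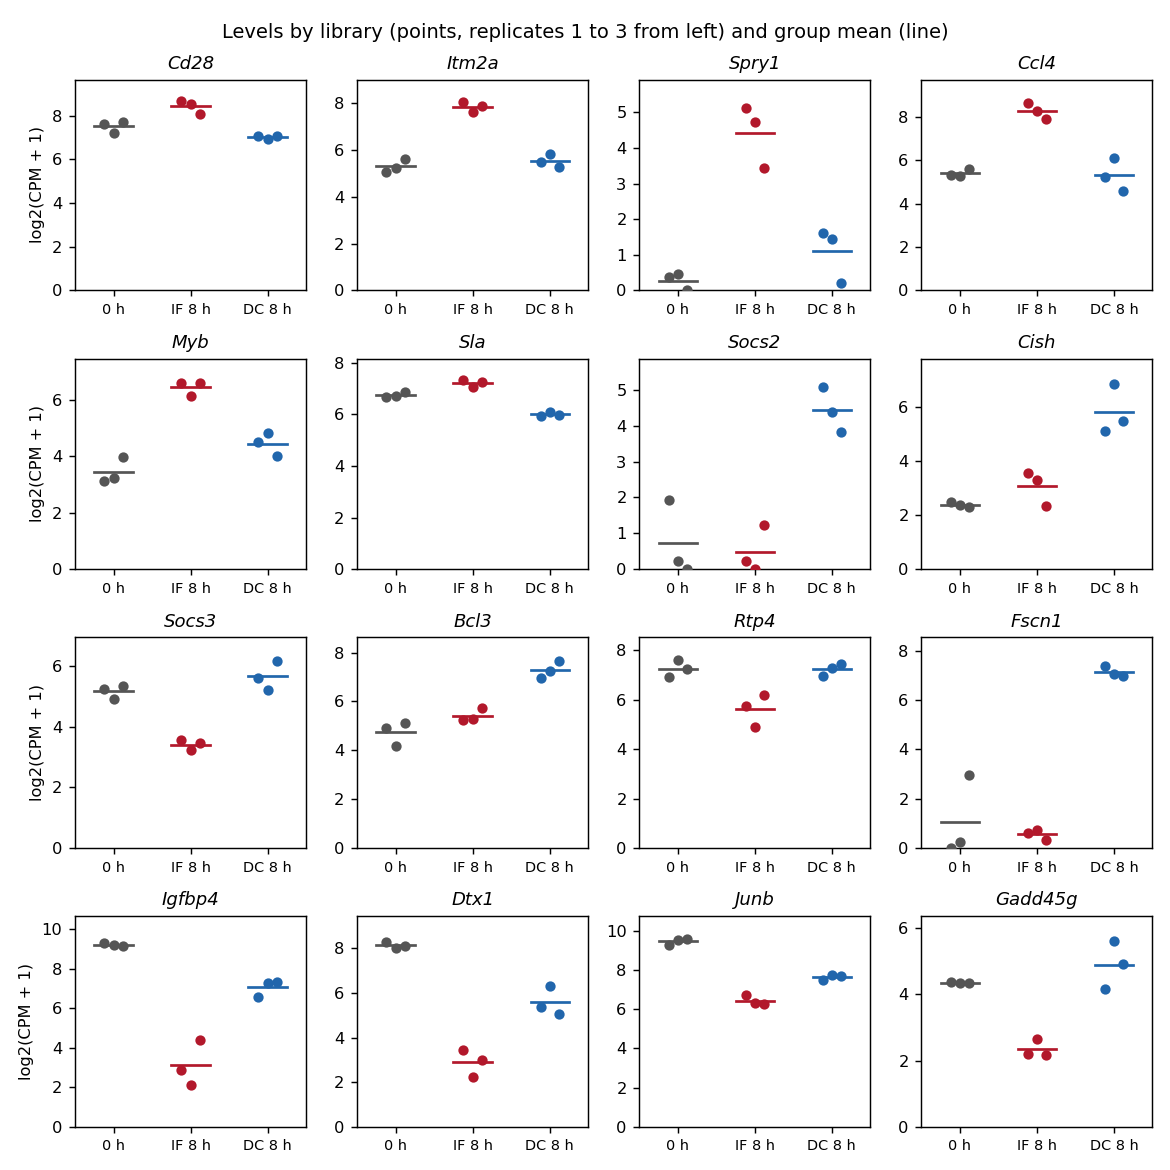
Levels of 16 genes as log2(CPM + 1) in the 3 unstimulated, 3 IF 8 h and 3 DC 8 h libraries; each panel is 1 gene, points are libraries with replicates 1 to 3 from left, and lines are group means. The 6 genes from Cd28 to Sla are higher in every IF library than in every DC library, and the other 10, from Socs2 to Gadd45g, are lower.

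Of a panel of 22 genes of T cell activation and naive state, all 22 were tested and 1 passed, Cd28, against 0.665% of all genes. Tnfrsf9, the 4-1BB receptor, was at 226, 134 and 160.5 CPM with immunofilaments and 108, 258 and 63.7 CPM with dendritic cells, against 4.99, 6.14 and 3.49 CPM before stimulation. The groups overlapped and the 95% interval of the log2 difference ran from −0.8 to 1.35. Il2ra, the alpha chain of the interleukin-2 receptor, was at 34.8, 11.9 and 39.1 CPM against 22, 56.8 and 17.9 CPM, with an interval of −1.69 to 1.38. For Myc the interval was −1.05 to 0.75, for Irf4 −0.44 to 2.44, for Nr4a1 −0.48 to 1.98, for Tnf −1.31 to 1.24 and for Ifng −2.54 to 1.4, all of which include 0. Ctla4, an inhibitory receptor, had a narrower interval of −0.47 to 0.6.

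In Gzmb, Icos, Egr2 and Ccr7 of the panel the groups did not overlap, and the test was not passed. Gzmb, the effector protease granzyme B, was at 36.6, 33.2 and 26.8 CPM with immunofilaments against 67.9, 282 and 113 CPM with dendritic cells (−2.26 ± 0.55, adjusted p 0.0809, past the threshold in 1 of 6 fits without 1 library). Unstimulated cells had 147, 73 and 108 CPM. Icos, a receptor of the CD28 family, was at 130.4, 128 and 139 CPM against 80.8, 66.2 and 78.7 CPM (0.82 ± 0.20, adjusted p 0.0795). Egr2, an early factor of receptor signalling, was at 32.8, 39.5 and 53.3 CPM against 3.96, 15.8 and 4.11 CPM (2.39 ± 0.71, adjusted p 0.198). Ccr7, a receptor that guides naive T cells into lymph nodes, was at 246, 274 and 237 CPM against 309, 330.1 and 344 CPM (−0.38 ± 0.15, adjusted p 0.47). Egr1, which is not on the panel, was at 54.1, 47.4 and 63 CPM against 17.2, 34.5 and 14.7 CPM (1.31 ± 0.30, adjusted p 0.0578, past in 1 of 6 such fits). Lists of metabolic and growth genes held no gene past the threshold. These were glycolysis (20 tested), ribosome biogenesis (30), the MYC network (10), mitosis (22), cholesterol and fatty acid synthesis (25), the amino acid and ATF4 response (24) and heat shock chaperones (18), with medians between −0.14 and 0.30. A one-sided share of signs also occurred in lists without a gene past the threshold, with 16 of 18 heat shock chaperones negative (88.9%) and 5 of 30 ribosome biogenesis genes (16.7%), against 51.0% of all genes. None passed either among 20 calcium and NFAT genes, 23 cytokine receptor chains, 14 inhibitory receptors, 9 RGS proteins, 28 actin and synapse genes or 18 MHC class I presentation genes.

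The feedback inhibitors Socs2, Cish and Socs3 were higher with dendritic cells. Socs2 (chr10:95385362-95417180, minus strand) was at 33, 20 and 13.2 CPM with dendritic cells, at 0.178, 0 and 1.34 CPM with immunofilaments and at 2.79, 0.181 and 0 CPM before stimulation. Its lowest DC library was 4.74-fold above the highest of the 6 unstimulated and IF libraries, and the difference was −5.44 ± 0.91 (adjusted p 0.00703). The IF libraries held 6 counts in all against 584 in the DC libraries, a ratio of 48.2 with a 95% counting interval of 22 to 132. Of the 6 counts 5 were in IF replicate 3, without which the fitted difference was −7.42. Cish was at 34, 115 and 43.8 CPM against 10.7, 8.95 and 4.02 CPM (−3.0 ± 0.52, adjusted p 0.0108), with 4.55, 4.16 and 3.96 CPM before stimulation. Socs3 was at 48.1, 36.1 and 70.6 CPM against 10.7, 8.29 and 9.91 CPM (−2.41 ± 0.32, adjusted p 0.00101). In Socs3 the unstimulated libraries, at 37.1, 29.1 and 39.1 CPM, overlapped the DC libraries, and it changed by −1.85 on the log2 scale with immunofilaments, whereas Socs2 and Cish rose with dendritic cells by 4.3 and 3.92. Socs2 passed in 5 of 6 fits (adjusted p 0.0558 without IF replicate 1), as did Cish (0.0689 without IF replicate 3). Without DC replicate 2, its highest library, Cish differed by −2.28. Cish shares exonic bases with Gm17040 and Gm17041 on the opposite strand, and mature dendritic cells are known to express Socs2, which is also on their list.

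These 3 genes were the only ones past the threshold among 20 tested genes of the JAK, STAT and SOCS list, of which 16 had a negative difference, with a median of −0.38. Over all genes tested 0.434% were past the threshold in this direction and 51.0% had a negative difference. Among 20 IL-2 and STAT5 targets 4 passed, the same 3 and Tnfrsf18, all higher with dendritic cells, with a median of −0.25. Both lists share these genes and are not independent of each other. Dendritic cell markers, described below, were 3.35-fold higher in sum in the same direction, and their part in these differences was not tested.

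The core letters bound by STAT factors, TTCNNNGAA, which read the same on both strands, were searched in RefSeq promoters (GRCm38.p6, 250 bases before to 50 after the start). They occur in 8.30% of 32851 promoters, and in 9.55% of 27025 genes. Of the 72 genes 50 had an entry. The letters were found in 5 of the 32 genes higher with dendritic cells (15.6%) and in 1 of 18 higher with immunofilaments (5.56%). Shown here, because Cish and Socs3 are classical STAT-driven feedback genes, are 180 bases before to 20 after the start of 3 of the 5, chosen after their matches were seen, with the match in capitals.

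Cish, chr9:107296479-107296678, plus strand: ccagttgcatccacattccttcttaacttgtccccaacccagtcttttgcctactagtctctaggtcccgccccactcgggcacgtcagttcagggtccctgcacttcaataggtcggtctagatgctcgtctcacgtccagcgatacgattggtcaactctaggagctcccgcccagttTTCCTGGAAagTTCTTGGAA

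Socs3, chr11:117969347-117969546, minus strand: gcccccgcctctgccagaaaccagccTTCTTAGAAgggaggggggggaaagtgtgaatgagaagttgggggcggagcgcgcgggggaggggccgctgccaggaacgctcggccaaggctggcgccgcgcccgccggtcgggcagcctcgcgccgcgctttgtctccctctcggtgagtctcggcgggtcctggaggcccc

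Icam1, chr9:21015760-21015959, plus strand: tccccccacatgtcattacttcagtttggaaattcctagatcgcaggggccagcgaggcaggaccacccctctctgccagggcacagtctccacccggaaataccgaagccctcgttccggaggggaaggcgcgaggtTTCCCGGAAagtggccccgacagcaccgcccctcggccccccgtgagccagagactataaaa

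In Cish 2 matches begin at bases 1 and 12 of the transcript, in Socs3 the match begins at −154 and in Icam1 at −42 from the start. The table has no Socs2 entry. A match describes these letters and does not show that a factor binds there. The AP-1 letters TGANTCA occur in 8.97% of all genes with a promoter and in 2 of the 32 genes (6.25%) and 3 of the 18 (16.7%). The interferon-stimulated response element, searched as GAAA, any 2 bases and GAAA on both strands, occurs in 3.99% of all genes with a promoter. It was found in 2 of the 32 genes higher with dendritic cells (6.25%) and 3 of the 18 higher with immunofilaments (16.7%). Of the type I interferon genes past the threshold, described below, Rtp4, Mx1 and Dhx58 had no promoter entry and were not searched. Irf7 and Oasl1 had an entry without a match.

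Some inhibitors and targets of NF-κB, 6 of 24 tested, were also higher with dendritic cells. Bcl3, an IκB-like protein that acts with NF-κB in the nucleus, was at 124, 149 and 202 CPM with dendritic cells, at 36.6, 38.1 and 51.7 CPM with immunofilaments and at 29.2, 17.2 and 33.5 CPM before stimulation. All 3 DC libraries lay more than 2-fold above all 6 others, with a difference of −1.91 ± 0.25 (adjusted p 0.00101). Bcl3 shares exonic bases with Gm16175 on the opposite strand. Nfkbia, which encodes the inhibitor IκBα and is itself an NF-κB target, was at 431, 616 and 541 CPM against 253, 251 and 280.0 CPM (−1.02 ± 0.18, adjusted p 0.0126, 2 of 6 fits). Nfkbie, which encodes IκBε, was at 25.4, 34 and 28.3 CPM against 12.7, 9.95 and 10.4 CPM (−1.4, 3 of 6 fits). The adaptor Traf1 differed by −0.88 and the adhesion receptor Icam1 by −0.86, and both passed in 0 of 6. Cd83, a surface molecule of mature dendritic cells and activated lymphocytes, was at 28.4, 65.6 and 26.6 CPM against 9.99, 2.65 and 5.89 CPM (−2.64, 3 of 6 fits). These 6 were all of the 24 tested NF-κB genes that passed, 21 of the 24 had a negative difference, and the median was −0.30, against 0.434% past the threshold in this direction and 51.0% negative over all genes. With 1 library left out, 1 to 4 of the list passed. With the replicate number as a block in the edgeR fit, Bcl3, Nfkbia and Nfkbie passed. Traf1, Icam1 and Cd83 did not (adjusted p 0.0525, 0.0545 and 0.0545). Dendritic cell markers, described below, were 3.35-fold higher in sum in the same direction, Cd83 is also on the list of mature dendritic cells, and the part of dendritic cell RNA in these differences was not tested.

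Some genes that respond to type I interferon were lower with immunofilaments. Of 32 tested members 5 passed, 0 higher and 5 lower, against 0.434% of all genes lower, and 29 of 32 had a negative difference (51.0% of all genes), with a median of −1.02. Rtp4 was at 52.6, 29.2 and 71.3 CPM with immunofilaments against 126, 153 and 173 CPM with dendritic cells and 119, 195 and 152 CPM before stimulation (−1.56 ± 0.25, adjusted p 0.00616). The DC libraries overlapped the unstimulated ones, and the IF libraries lay below all 6. Oasl1, an antiviral protein, was at 2.14, 2.32 and 4.29 CPM against 12.7, 13.9 and 23.1 CPM (−2.51, adjusted p 0.01, 4 of 6 fits). Dhx58, a regulator of RNA sensing, differed by −2.02, the antiviral GTPase Mx1 by −1.51 and Irf7, the factor that amplifies interferon production, by −1.35, and each of these passed in 1 of 6 fits. Rtp4 shares exonic bases with Gm45338 on the same strand, and Oasl1, Dhx58 and Irf7 share some with a gene on the opposite strand. Without 1 library, 1 to 5 members passed and the median stayed between −1.23 and −0.81 over all settings tried.

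Set against unstimulated cells, 10 of the 32 interferon genes fell and 2 rose with immunofilaments (background 4.72% lower and 3.04% higher), with a median of −0.82. With dendritic cells 0 fell and 2 rose (4.07% and 2.75%), with a median of 0.01. Both comparisons share the unstimulated libraries. The interferon-inducible GTPases of the GBP and IRG families, which respond mainly to interferon gamma, did not follow this order at 8 h. Of 14 tested, 0 were past the threshold between the stimuli, with a median of 0.19, and their values at 22 h are given below. Whether their difference differs from that of the type I genes was not tested. Interferon genes are also expressed by dendritic cells, whose markers moved with this contrast as given below, and their part in the result was not tested.

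**Figure D3:**
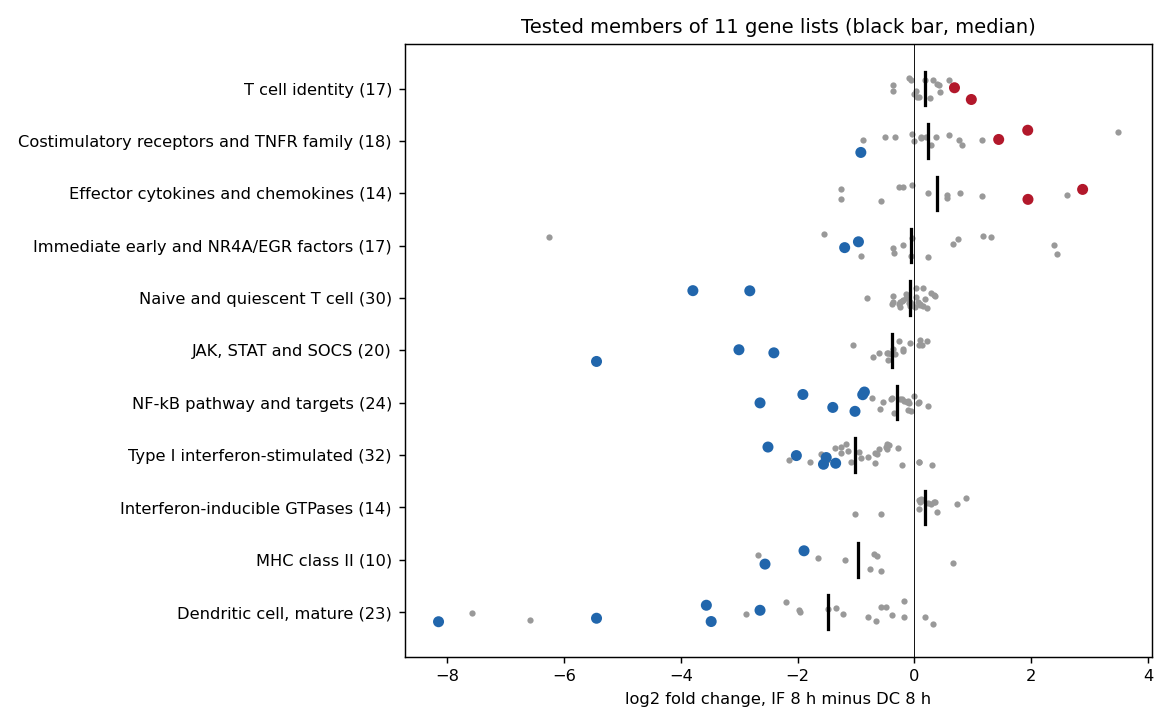
Each point is the log2 fold change at 8 h, IF minus DC, of 1 tested gene of the list named on the y axis, with the number of tested members in brackets; coloured points passed the threshold (red higher with immunofilaments, blue higher with dendritic cells), and black bars are medians. The medians of the interferon-stimulated (−1.02), MHC class II (−0.97) and mature dendritic cell (−1.48) lists lie below those of the T cell lists.

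Single genes of stress response, cell cycle and survival were higher with dendritic cells. Of 33 tested G1 and S phase genes Cdkn1a was higher with dendritic cells and Cdkn2c with immunofilaments (median −0.27), and of 12 tested BCL2 family genes only Bcl2l1 passed (median 0.06). Gadd45g, a stress-response gene induced by cytokines in T cells, was at 16.9, 47.6 and 29.1 CPM against 3.57, 5.3 and 3.48 CPM, with 19.7, 19.2 and 19.1 CPM before stimulation (−2.94 ± 0.38, adjusted p 0.00101). Bhlhe40, a factor needed for cytokine production by T cells, was at 18.4, 51.8 and 18.4 CPM against 3.57, 5.64 and 3.21 CPM (−2.85 ± 0.46, adjusted p 0.00593, 5 of 6 fits, 0.0514 without IF replicate 3). Cdkn1a, the cell cycle inhibitor p21, was at 51.1, 169 and 46.1 CPM against 8.56, 10.3 and 19.3 CPM (−2.81, 3 of 6 fits) and Hic1, a transcriptional repressor, at 85.8, 349 and 91.3 CPM against 33.7, 30.8 and 20.1 CPM (−2.63, 2 of 6 fits). Bcl2l1, which encodes the survival protein BCL-xL, was at 38.5, 89.5 and 38 CPM against 19.8, 8.95 and 11.3 CPM (−2.02, 3 of 6 fits). In all 5 genes DC replicate 2 was the highest library. Without it the adjusted p-value was 0.104 for Cdkn1a, 0.177 for Hic1 and 0.15 for Bcl2l1, while Gadd45g and Bhlhe40 passed. The difference without it was −1.94 for Cdkn1a, −1.65 for Hic1, −1.49 for Bcl2l1 and −2.17 for Bhlhe40. Over the 47 genes higher with dendritic cells, replicate 2 was the highest DC library in 28, replicate 3 in 11 and replicate 1 in 8.

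Of the AP-1 family, Junb and Batf were higher with dendritic cells. Junb was at 176, 215 and 206 CPM with dendritic cells and 105, 79.9 and 75.5 CPM with immunofilaments, both far below the 626, 753 and 777 CPM of unstimulated cells (−1.19 ± 0.17, adjusted p 0.00144). It shares exonic bases with Prdx2 on the opposite strand. Batf, the AP-1 partner of IRF4 in activated T cells, was at 33.2, 45.8 and 32.3 CPM against 18.7, 19.6 and 19 CPM (−0.96 ± 0.21, adjusted p 0.0425) and passed in 0 of 6 fits. These 2 were the only ones past the threshold among 17 immediate early genes, whose median was −0.06. Their relative Batf3 was at 0 CPM in all IF libraries and at 1.49, 0.745 and 1.32 CPM in the DC libraries, and did not pass (adjusted p 0.269).

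A pair of genes of naive T cells fell further with immunofilaments. Igfbp4, a growth factor binding protein abundant in naive CD8+ cells, was at 637, 576 and 573 CPM before stimulation, 94, 153 and 161 CPM with dendritic cells and 6.24, 3.32 and 19.8 CPM with immunofilaments (−3.79 ± 0.52 between the stimuli, adjusted p 0.00135). Dtx1, a ubiquitin ligase of the Notch pathway linked to T cell anergy, was at 309, 259.5 and 272, then 40.7, 78.4 and 32.4 and 9.99, 3.65 and 6.97 CPM in the same order (−2.82 ± 0.35, adjusted p 0.00101). In both genes the 3 groups did not overlap. Without IF replicate 3 Igfbp4 differed by −4.76. They were the only 2 past the threshold among 30 tested naive and quiescence genes, against 0.434% of all genes in this direction, and the list's median was −0.07, and the interval of Klf2, a factor of the same programme, ran from −0.52 to 0.71. Ctsw, a protease of cytotoxic cells, had the same order of groups (−0.71, 0 of 6 fits).

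Fscn1 had the largest difference of the 72 genes, and 5 of 23 tested genes of mature dendritic cells passed, all higher with dendritic cells, with a list median of −1.48, against 0.434% past the threshold in this direction and a median of −0.01 over all genes. With 1 library left out, 2 to 4 of the mature dendritic cell list passed. Fscn1, the actin-bundling protein fascin of mature dendritic cells (chr5:142960343-142973185, plus strand), was at 168, 132 and 126 CPM with dendritic cells and at 0.535, 0.663 and 0.268 CPM with immunofilaments. The IF libraries held 6 counts and the DC libraries 3620, a ratio of 299 with a counting interval of 137 to 814, and the log2 difference was −8.15 ± 1.04 (adjusted p 0.00101). Unstimulated libraries had 0, 0.181 and 6.75 CPM. Ccl22, a chemokine of mature dendritic cells, was at 18.2, 14.4 and 10.3 CPM against 0.892, 2.98 and 0 CPM (−3.56 ± 0.68, adjusted p 0.0211, 2 of 6 fits, −4.77 without IF replicate 2). Cacnb3, a calcium channel subunit of the same cells, was at 11, 8.32 and 6.61 CPM against 1.43, 0.663 and 0 CPM (−3.48, 1 of 6 fits, −4.78 without IF replicate 1). The lysosomal protease Ctsh was at 12, 9.19 and 12.6 CPM against 0.178, 0.663 and 0.536 CPM (−4.7, 4 of 6 fits). Cxcl16, a membrane-bound chemokine of antigen-presenting cells, was at 10.5, 10.3 and 7.93 CPM against 0.178, 0.332 and 0 CPM, from 2 counts in the IF libraries, a ratio of 60.1 with a counting interval of 16.5 to 499 (−5.75, 0 of 6 fits). It shares exonic bases with Zmynd15 on the opposite strand. Intervals of counts cover counting error only.

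Of a list of 30 dendritic cell markers chosen as absent from T cells, 28 were present in the data. Of these, 23 were tested and 6 passed, all higher with dendritic cells, against 0.434% of all genes. These were Fscn1, Ctsh, Ccl22, Cacnb3, H2-Eb1 and Cd74, and the median over the tested genes was −1.89. With 1 library left out, 1 to 6 of these markers passed. The difference was positive in 4 of the 23, none of them past the threshold. Among these was Itgax, which encodes the integrin CD11c, at 11.1, 15.3 and 11.8 CPM with immunofilaments against 6.93, 5.22 and 3.82 CPM with dendritic cells (1.23, adjusted p 0.426). Some of the markers were measured before any dendritic cell was added, with Itgax at 12.8, 16.3 and 14.4 CPM and the protease inhibitor Cst3 at 199, 174 and 291 CPM in unstimulated cells. Il12b, a subunit of interleukin-12, was at 3.07, 4.47 and 1.32 CPM in DC libraries and 0 in the IF libraries, and did not pass (adjusted p 0.22). Zbtb46, a factor that defines classical dendritic cells, was at 0 in all unstimulated and IF 8 h libraries and present in the DC 8 h libraries, too low to be tested. Summed over the list the level was 225, 499 and 246 CPM with immunofilaments, 1282, 894 and 1077 CPM with dendritic cells and 786, 693 and 1592 CPM in unstimulated cells. The groups at 8 h differed by 3.35-fold without overlap, with a two-sided exact permutation p of 0.1, the smallest that 3 against 3 libraries can give. In bulk RNA, fewer cells of a type and less RNA per cell cannot be told apart. Lists of the dendritic cell subsets differed in the direction of their sums. The cDC1 list summed to 326, 286 and 316 CPM with immunofilaments and 249, 414 and 208 CPM with dendritic cells, overlapping. The cDC2 list summed to 190, 159 and 190 CPM against 95.8, 157 and 84.1 CPM, higher with immunofilaments. Irf4, also a gene of the T cell activation panel, made up much of the cDC2 sum, at 148, 99.1 and 147 CPM against 41.8, 128 and 27.6 CPM. The cDC2 list without Irf4 was not tested. The plasmacytoid list summed to 299, 266 and 295 CPM against 330.5, 396 and 384 CPM, higher with dendritic cells, and its 1 member past the threshold was Irf7.

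MHC class II genes made up most of that sum and were not absent where no dendritic cells had been added. H2-Eb1 was at 396, 173 and 247 CPM with dendritic cells, 19.4, 90.2 and 31.3 CPM with immunofilaments and 170.1, 90.9 and 331 CPM in unstimulated cells (−2.56 ± 0.51, adjusted p 0.0286, 2 of 6 fits). Cd74, the invariant chain, differed by −1.89 (1 of 6 fits), and H2-Aa was at 244, 197 and 229.8 CPM against 40, 119 and 54.9 CPM without passing (adjusted p 0.0638, past in 1 of 6 fits without 1 library). In H2-Eb1, Cd74 and H2-Aa the highest IF library was replicate 2, the one with the most B cell RNA. It was also the IF library with the highest sum of the 22 other markers given below, and the source of this RNA was not tested. Without IF replicate 2 the difference was −3.43 for H2-Eb1 and −2.66 for Cd74. Without the MHC class II genes the other 22 markers summed to 112, 148 and 107 CPM against 404, 320 and 355 CPM, a ratio of 2.94, with 262, 258 and 421 CPM before stimulation.

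**Figure D4:**
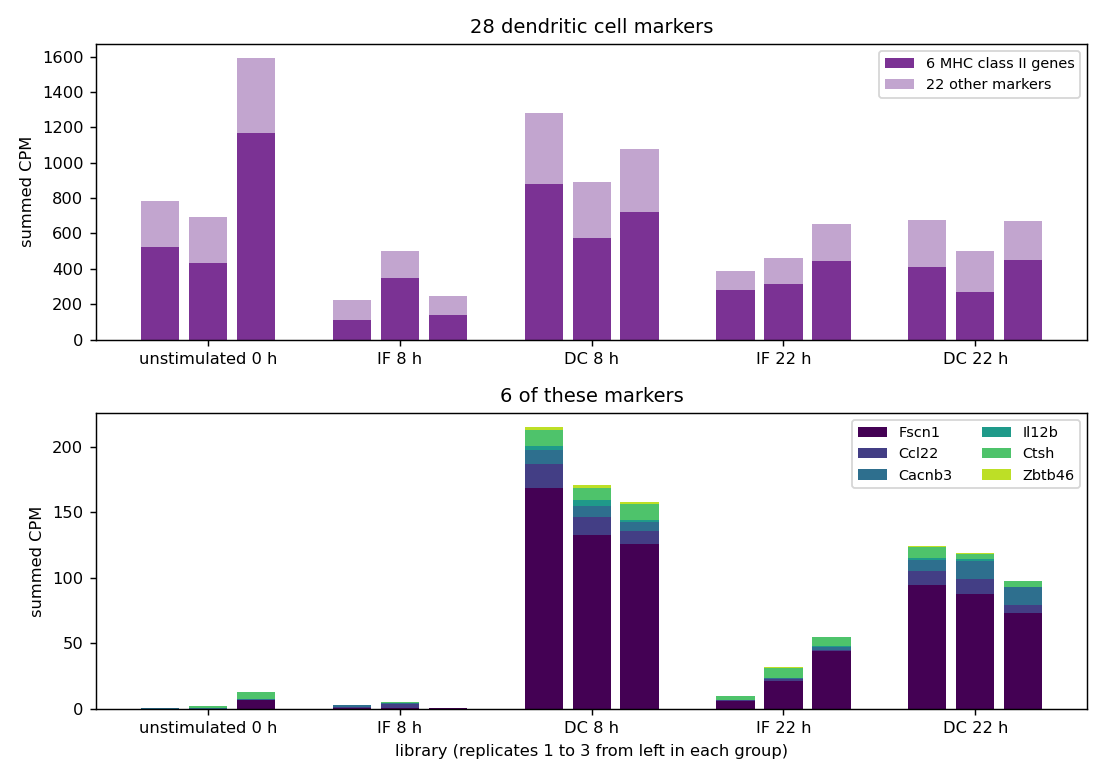
The upper panel stacks, for each of the 15 libraries, the summed CPM of 6 MHC class II genes and 22 other dendritic cell markers; the lower panel stacks 6 of the latter. The upper sums in unstimulated cells (693 to 1592 CPM) overlap those with dendritic cells at 8 h (894 to 1282 CPM), whereas the 6 genes of the lower panel, led by Fscn1, are lower in each unstimulated and IF 8 h library than in each DC 8 h library. These 6 were picked by hand from the 22. Others of the 22, such as Cst3 and Naaa, are higher in each unstimulated library than in each DC 8 h library.

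In an attempt to separate the 2 sources, each of the 47 genes higher with dendritic cells was looked up in the 9 libraries without them. These were the unstimulated and both IF groups. All 47 had more than 3 counts in at least 2 of 3 libraries of some such group, so by this rule 0 genes were seen with dendritic cells only. The rule cannot separate the sources, because the unstimulated libraries themselves held dendritic cell markers, at 693 to 1592 CPM in sum. Fscn1 met the rule through the IF 22 h libraries, at 5.83, 21.5 and 43.8 CPM. With a limit of 10 counts Cacnb3 alone failed the rule. A second description was chosen after the values were seen. In 31 of the 47 genes the lowest DC 8 h library lay above all 6 unstimulated and IF 8 h libraries, by over 2-fold in 13 and by over 5-fold in 2, Fscn1 (18.6) and Cxcl16 (6.75). The other 11 of the 13 were Socs2, Cacnb3, Casz1, Ccl22, Cish, Cd83, Hic1, Bcl3, Cdkn1a, Ctnna1 and Dennd5a. With the genes of all lists of other cells taken out of the scaling and the test, 60 genes passed, 22 higher with immunofilaments and 38 higher with dendritic cells, and all 60 were among the 72. This fit cannot separate the sources either. Listed genes such as Fscn1 and Socs2 were left untested by design, and any dendritic cell RNA in the counts of the other genes stayed there.

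The remaining genes higher with dendritic cells are listed with their difference. Ncoa7, a nuclear receptor coactivator family member, was at 56.2, 73 and 65.8 CPM against 19.3, 11.9 and 24.4 CPM, with 26.3, 29.6 and 31 CPM before stimulation (−1.8 ± 0.23, adjusted p 0.00101), and shares exonic bases with Hint3 on the same strand. Adam19, a membrane metalloprotease, differed by −1.36 (5 of 6 fits). The nucleosome-binding protein Hmgn3 differed by −3.5 (3 of 6), the protein kinase A inhibitor Pkib by −3.76 (1 of 6) and Ap1m2, an adaptor subunit for membrane sorting, by −3.5 (1 of 6). Without IF replicate 1 Hmgn3 differed by −4.31 and Pkib by −5.06. Skil, a repressor of TGF-β signalling, differed by −1.38 (2 of 6), Dennd5a, a regulator of Rab GTPases, by −1.43 (2 of 6), and Ctnna1, which encodes α-catenin, by −1.81 (1 of 6). The antiviral deaminase Apobec3 differed by −0.76 (2 of 6) and the lincRNA 2310034O05Rik by −1.0 (1 of 6). Casz1 (−2.64), Ogfrl1 (−2.09), Rnf19b (−1.03) and the lincRNA Gm19705 (−1.19) passed in 0 of 6. Fhit had 0 counts in all 3 IF libraries and 1.58, 2.24 and 3.67 CPM with dendritic cells, at least 10.3-fold higher against a floor of 3 counts over the IF group (4 of 6 fits). Bhlhe40, Cdkn1a, Icam1, Ctsw, Tnfrsf18, Adam19, Hmgn3, Ctnna1, Casz1, Fhit, Zeb2 and Apobec3 overlap exons of an opposite-strand gene, and Apobec3, Ephx1, Zeb2 and Cd74 those of a gene on the same strand, so their counts may hold reads of the other gene.

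Placed against unstimulated cells, the genes fell into 2 main classes on each side. Of the 47 genes higher with dendritic cells, 22 had risen with dendritic cells and were not past the threshold with immunofilaments. Another 12 had fallen with immunofilaments and were not past it with dendritic cells. Among the 22 were Socs2, Cish, Bcl3, Bcl2l1, Bhlhe40 and Fscn1, and among the 12 Socs3, Gadd45g, Rtp4, Oasl1, Irf7 and H2-Eb1. The rest were 4 that fell with both stimuli (Igfbp4, Dtx1, Junb, Ctsw), 3 that rose with both (Ccl22, Cdkn1a, Traf1) and 6 past the threshold with neither. Of the 25 genes higher with immunofilaments, 10 had risen with immunofilaments and were not past the threshold with dendritic cells, among them Cd28, Spry1, Ccl4, Itm2a and Srgn. Another 11 had fallen with dendritic cells and were not past it with immunofilaments, among them Cd5, Cd6, Sla, Itih5, Folr4 and Zeb2. Myb and Fam102b rose with both, D8Ertd82e fell with both, and Klrk1 passed with neither. For comparison, 7.76% of all genes passed with immunofilaments and 6.82% with dendritic cells, and both comparisons share the unstimulated libraries.

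The same contrast was measured at 22 h in 6 other libraries of the same fit. Of the 72 genes, 67 had the same sign at 22 h, against 56.2% of all genes. Another count is that 43 passed at 22 h in the same direction and 0 in the opposite one, against 2.43% of all genes past the threshold at 22 h. On the immunofilament side 19 of 25 passed (background 1.23%), with Cd28 at 2.38 (adjusted p 1.40e-05), Myb at 2.98 (3.88e-05), Pou2af1 at 3.73 (8.49e-04) and Spry1 at 4.27 (0.00126). On the other side 24 of 47 passed (background 1.20%), with Cish at −3.71 (9.73e-04), Socs3 at −2.69 (1.33e-04), Bcl3 at −2.79 (2.04e-05) and Rtp4 at −3.09 (1.40e-05). Among the 32 interferon genes 25 were lower with immunofilaments at 22 h, with a median of −1.96. Of the 14 interferon-inducible GTPases 4 were lower and 0 higher at 22 h, with a median of −1.50. Genes higher with dendritic cells at 8 h that did not pass at 22 h included Fscn1 (−1.82, adjusted p 0.155), Ctsh (0.06), H2-Eb1 (−0.25) and Dtx1 (−0.92). In the DC libraries at 22 h Fscn1 was at 94.8, 87.6 and 72.9 CPM.

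Whether the difference itself changed from 8 h to 22 h was asked with an interaction term. By edgeR 0 of 10831 genes passed, the smallest adjusted p-value was 0.0819, and 858 genes had an unadjusted p under 0.05, while DESeq2 called 40. IF 22 h replicates 2 and 3 held 0.179% and 0.146% of their counts in mitochondrial ribosomal RNA, against 1.82% to 4.49% in the 13 other libraries. Without IF 22 h replicate 1, 66 of the 72 genes kept their sign, 45 passed at 22 h and the interaction called 279 genes. Without replicates 2 and 3, 69 kept their sign. That fit holds a single IF 22 h library, so the spread within that group could not be measured.

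**Figure D5:**
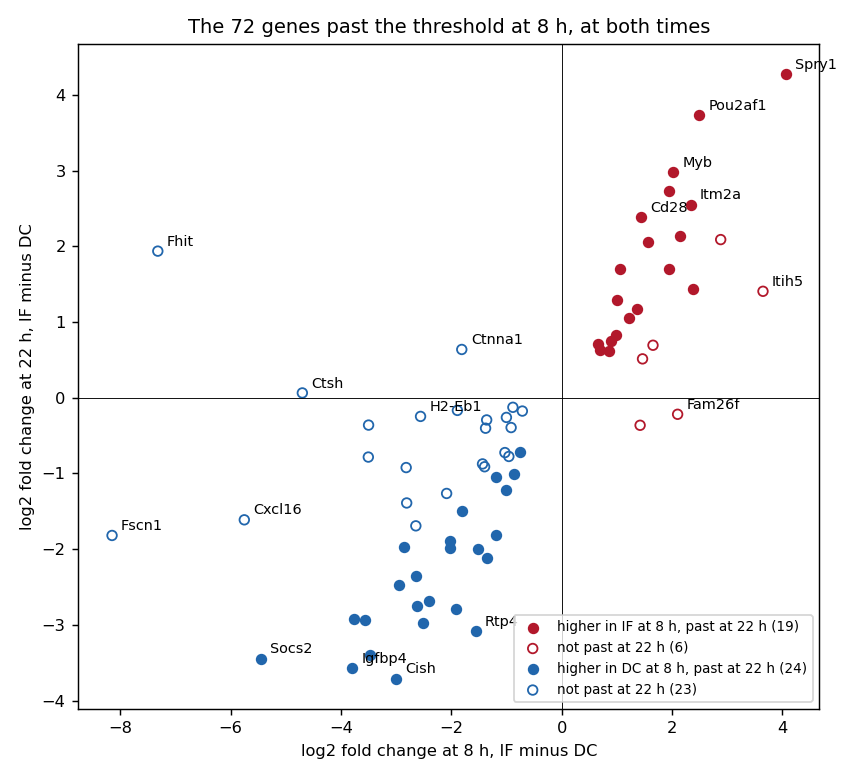
Each point is 1 of the 72 genes past the threshold at 8 h, with its log2 fold change, IF minus DC, at 8 h on the x axis and at 22 h on the y axis; filled points also passed at 22 h. Of the 72 points 67 lie in the quadrants of equal sign, and the 5 others, among them Fhit, Ctnna1, Ctsh and Fam26f, are open.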

How the data were processed

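The authors deposited raw counts per gene, whole numbers without normalization, 1 table per library. Libraries were made by adapted CEL-seq, a 3' tag method with linear amplification, per the labels' protocols. BWA and mm10 are named in the submitters' processing notes, and how genes were annotated, whether strand mattered and whether molecular identifiers were used are not given in the sources used here. Amplified reads need not be independent molecules.

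The analysis used edgeR 4.0.16, with limma 3.58.1, under R 4.3.3. The filterByExpr rule (minimum count 10, minimum total 15) left 10831 of 17493 genes, which were scaled by TMM and fitted as 5 group means over all 15 libraries in 1 quasi-likelihood model. All p-values are two-sided and adjusted over all genes by Benjamini-Hochberg, with a threshold of 0.05 and a prior count of 0.125. Replicate pairs differed by 9.50 to 39.0 times counting noise (chi-square per degree of freedom), so no library was counted as a copy. Shared exonic bases are from GENCODE vM21 (GRCm38), the build of mm10, with genes matched by symbol.

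Any gene past the threshold could be named. The 12 highest and 12 lowest fold changes among genes with at least 30 mean counts in the higher group were to be given in full, with list members past the threshold, the 3 smallest p-values of each list, the panel and the dendritic cell markers. The members, lists and naming rule were chosen with earlier results of these data known. Results for a few genes are not reported here. Alternatives, including DESeq2 1.42.0, changed 1 choice at a time. The filter was applied anew where libraries were left out or thinned, so the genes tested changed with them, and leaving out the genes of other cells changed both the scaling and the genes tested.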

Additional observations from a re-analysis of the deposited data

How the results depend on the processing

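Of 1340 pairs of a gene past the threshold and an alternative setting, 975 kept the call, 365 kept the direction but not the call and 0 changed direction. Of the 975, 72 come from a prior count of 2, which alters fold changes and not the test. In all 20 of the 72 genes passed in every setting in which they were tested. The count of 72 genes (25 higher with immunofilaments, 47 lower, 41 on a gene list) became 215 (64, 151 and 81) without a low-count filter, 194 (58, 136 and 71) with DESeq2, and 25 (13, 12 and 12) at an adjusted p of 0.01. With only both groups in the fit 47 passed, 17 higher and 30 lower, with 26 on a list. Other scalings gave 75 and 86 genes, a mean of at least 10 CPM 62, thinning to the smallest library 78, and 3 groups in the fit 66. Without IF 22 h libraries 2 and 3 in the fit 52 passed, with 26 on a list. Without 1 library, 27 to 52 genes passed, 13 to 20 of them higher, 14 to 34 lower and 13 to 27 on a list. The cause of these moves was not tested, except that each such fit has fewer libraries.

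With the replicate number as a block 54 genes passed, 23 higher and 31 lower. Deviations of same-numbered libraries correlated at −0.04, −0.12 and −0.05, none over 0.1, so the number was not taken as a pairing, and no library correlated best with its own number. Erdr1 followed the number in 4 groups and in IF 8 h with 2 and 3 exchanged; with that exchange the correlations are −0.04, 0.09 and 0.06, and a block with it was not fitted. At 22 h, 43 of the 72 genes passed, and 6 without IF 22 h libraries 2 and 3. The interaction called 0 genes, 40 with DESeq2 and 279 without IF 22 h library 1.

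Some panel genes that did not pass changed direction. With the replicate block Il2ra turned to 0.18 and Tnf to 0.22. Over the fits without 1 library the difference ran from −0.47 to 0.53 for Il2ra, −0.0945 to 1.01 for Tnfrsf9, −1.13 to 0.95 for Ifng, −0.38 to 0.71 for Tnf, −0.46 to 0.43 for Myc, −2.44 to 1.31 for Prdm1, −0.40 to 0.64 for Pdcd1, −0.0629 to 0.14 for Ctla4, −0.20 to 0.32 for Il7r and −0.12 to 0.31 for Klf2. Lower depth of the IF libraries limits what can be said of genes near 1 CPM there, such as Socs2, Ctsh and Cxcl16.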
